A study of Mus musculus with 8 samples.

Results

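Cathepsins are the proteases of the lysosome, and the transcripts of 10 of them, Ctsa, Ctsb, Ctsc, Ctsd, Ctse, Ctsh, Ctsk, Ctsl, Ctss and Ctsz, were followed across cultured cells and muscle of the mouse heart. They were taken by gene name, with every probe of each gene, which gave 13 of the 55681 probes and 10 of the 34741 gene names on the array. Ctsb, Ctsc, Ctsh, Ctsk, Ctsl, Ctss and Ctsz encode cysteine proteases of the papain type, and Ctsd and Ctse encode aspartic proteases. Ctsa encodes a serine carboxypeptidase and is therefore neither, although it carries the cathepsin name.

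Cathepsins are made as inactive proenzymes, tagged with mannose 6-phosphate in the Golgi apparatus, carried by sorting receptors to endosomes and lysosomes, and activated there by removal of the propeptide at acid pH. They degrade endocytosed protein, matrix and organelles, and in macrophages and other antigen-presenting cells they also cut the invariant chain and antigens loaded on class II molecules. They are held in check by cystatins outside the cell and by stefins inside it, and in the heart loss of cathepsin L leads to dilated cardiomyopathy in mice.

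RNA of 8 samples was measured on 1-colour Agilent arrays, 2 for each of 4 groups from C57BL/6 mice. The passage-8 cells were grown in culture to passage 8 out of the CD45-positive cells. The CD45-negative cells were primary cells that carry the receptor c-kit and lack CD45, the phosphatase of white blood cells, sorted from explants of the left atrial appendage digested with 0.25% trypsin. The CD45-positive cells were primary c-kit-positive cells that carry CD45, obtained from the same tissue with 0.05% trypsin, and both digestions included 0.1% collagenase D. The cell donors were 8 to 12 weeks old. The left ventricle samples, the control tissue of the study, were wall biopsies of mice aged 12 weeks, with RNA extracted by another reagent than in the cells. The study's question is whether the CD45-positive, macrophage-like cells turn in culture into cells like the CD45-negative ones. Nothing in the labels says whether the 2 samples of a group came from separate animals or cultures, so the p-values reflect only how far these samples scatter, and that scatter may be technical.

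Values are log2 of the processed spot signal minus the 75th percentile of the array, called relative level here, and a difference between groups is a log2 difference of relative levels. To pass, a gene needed both an adjusted p by limma under 0.05 and a change of 1 log2 unit or more in either direction. Levels of different probes cannot be compared with each other. All 8 arrays lie on 1 slide with 1 scan date. Spots well above background made up 51.5% to 69.9% of each array, and none was saturated. The sort labels were met by Ptprc, the CD45 gene, which had relative levels of -5.57 and -5.18 in passage-8 cells, -5.52 and -3.34 in CD45-negative cells, 2.04 and 1.93 in CD45-positive cells, with -2.33 and -2.89 in left ventricle. Of 10 macrophage markers, 10 were well above background in CD45-positive cells, and their summed linear level, in units of the 75th percentile, was 7.07 to 7.23 in passage-8 cells, 3.73 to 36.6 in CD45-negative cells, 973 to 985 in CD45-positive cells and 33.3 to 39.9 in left ventricle. The 10 fibroblast markers were all well above background in every group, with sums of 1064 to 1072 in passage-8 cells, 1504 to 1597 in CD45-negative cells, 620 to 648 in CD45-positive cells and 286 to 438 in left ventricle. The 8 cardiomyocyte markers summed to 3307 to 3955 in left ventricle and to at most 6.12 in any array of cells.

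The CD45-positive cells had the highest mean of 9 of the 10 cathepsins, and left ventricle had the highest mean of the tenth, Ctse. The lowest mean was in left ventricle for 5 genes (Ctsa, Ctsb, Ctsk, Ctsl and Ctsz), in passage-8 cells for 4 (Ctsc, Ctsd, Ctsh and Ctss) and in CD45-positive cells for Ctse, which was not well above background on any array of cells. For Ctsd this holds for its brighter probe, and on its other probe the mean was lowest in CD45-negative cells. In the plot of levels by group the CD45-positive points lie above those of every other group in all panels but that of Ctse. In bulk RNA, fewer cells of a type and less RNA per cell cannot be told apart, so these levels describe the samples and not single cells.

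**Figure D1:**
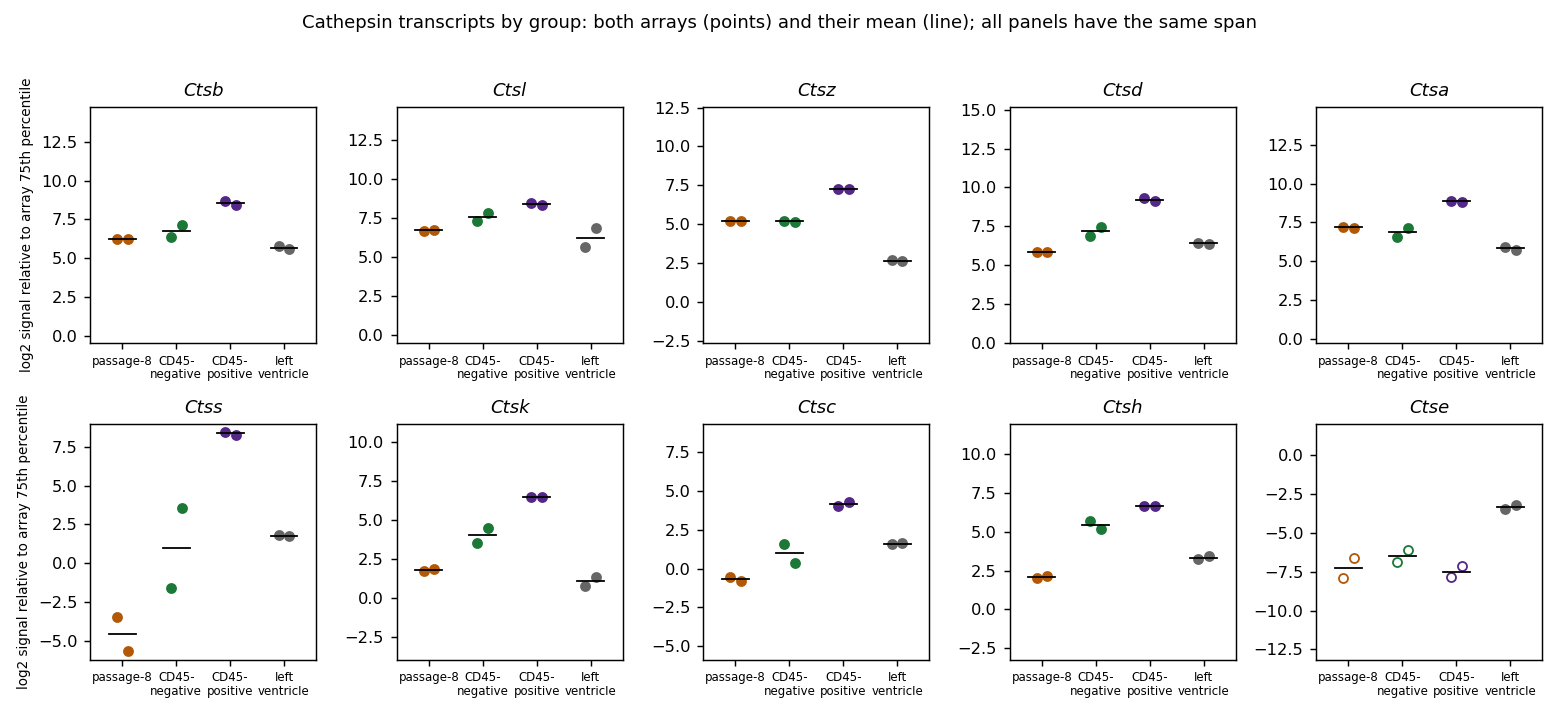
Relative level (log2 signal minus the array's 75th percentile) of the 10 cathepsins in passage-8 cells, CD45-negative cells, CD45-positive cells and left ventricle. Points are the 2 arrays of a group, lines their mean, open points a group with no array well above background, and all panels have the same span. The CD45-positive arrays are the highest for 9 genes, and the CD45-negative arrays lie far apart for Ctss, at -1.63 and 3.56.

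Cathepsins B, L and Z are found in the lysosomes of most cell types. Cathepsin B acts both as an endopeptidase and as a peptidyl dipeptidase, and its transcript, measured on chromosome 14, had relative levels of 6.20 and 6.21 in passage-8 cells, 6.37 and 7.15 in CD45-negative cells, 8.67 and 8.41 in CD45-positive cells, with 5.76 and 5.60 in left ventricle. No 2 groups overlapped. Ctsb was 5.04-fold lower in passage-8 relative to CD45-positive cells (log2 difference -2.33, SE 0.31, adjusted p by limma = 0.00441) and 3.44-fold lower in CD45-negative relative to CD45-positive cells (-1.78, adjusted p = 0.0119). The call of CD45-negative against CD45-positive cells was lost without CD45-positive replicate 1 or 2, at -1.65 and -1.91. Between passage-8 and CD45-negative cells the difference of -0.55 did not pass, with a 95% interval of -1.31 to 0.20.

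Cathepsin L, an endopeptidase, is the cathepsin whose loss damages the mouse heart. Ctsl had relative levels of 6.69 and 6.75 in passage-8 cells, 7.31 and 7.83 in CD45-negative cells, 8.45 and 8.31 in CD45-positive cells, with 5.66 and 6.83 in left ventricle. The ventricle arrays differed by 1.18, and the second of them lay above both passage-8 arrays. Ctsl was 3.18-fold lower in passage-8 relative to CD45-positive cells (adjusted p by limma = 0.0340), and this call was lost without any 1 of the 4 arrays of those groups (adjusted p of 0.107 to 0.154). Against CD45-positive cells the CD45-negative cells differed by -0.82 with a 95% interval of -1.85 to 0.22, which did not pass, and Ctsl is the only tested cathepsin that did not pass there.

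Cathepsin Z, also named cathepsin X, is a carboxypeptidase. Ctsz had relative levels of 5.20 and 5.18 in passage-8 cells, 5.21 and 5.16 in CD45-negative cells, 7.27 and 7.28 in CD45-positive cells, with 2.66 and 2.60 in left ventricle. The passage-8 and CD45-negative arrays overlapped, and the difference between them was 0.01 with a 95% interval of -0.45 to 0.46. Ctsz was 4.25-fold lower in passage-8 cells (adjusted p by limma = 0.00144) and 4.27-fold lower in CD45-negative cells (adjusted p = 0.00248) than in CD45-positive cells. It was 25.0-fold higher in CD45-positive cells than in left ventricle, and the passage-8 and CD45-negative cells were 5.88-fold and 5.85-fold higher than left ventricle.

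Cathepsin D is the main aspartic protease of lysosomes, and its gene is read by 2 probes that gave different answers. The brighter probe stands for the gene in all counts. It lies in 60 continuous bases of mm9 at chr7:149561962-149562021 on the minus strand, from base 1753 of the transcript. The second probe starts at base 528 of the same RefSeq transcript, and its 60 bases spread over 1659 bases of the genome, at chr7:149566847-149568505 on the minus strand, so that it crosses an intron. Both are shown, the first by its opening 30 bases, because the direction of a result hangs on which of them is read, and neither has capitals because no motif was sought in them.
Ctsd probe from base 1753, first 30 bases: gaaggagcaagaggacagaagcaaaactat
Ctsd probe from base 528: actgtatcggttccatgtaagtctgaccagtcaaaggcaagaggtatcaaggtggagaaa

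With the probe from base 1753, Ctsd had relative levels of 5.85 and 5.84 in passage-8 cells, 6.89 and 7.43 in CD45-negative cells, 9.30 and 9.10 in CD45-positive cells, with 6.41 and 6.38 in left ventricle. With the probe from base 528, the levels were 3.57 and 3.54 in passage-8 cells, 2.11 and 2.32 in CD45-negative cells, 7.87 and 7.70 in CD45-positive cells, with 3.88 and 3.53 in left ventricle. On either probe no array of another group reached the CD45-positive cells. The CD45-negative cells, however, ranked second by the first probe and last by the other, and on both probes their arrays overlapped with no other group.

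In a fit of every probe by itself, passage-8 minus CD45-negative cells was -1.32 for the probe from base 1753 (adjusted p by limma = 0.0286) and 1.34 for the probe from base 528 (adjusted p = 0.0215), so that each passed in opposite directions. CD45-negative minus left ventricle was 0.77 for the probe from base 1753 (adjusted p = 0.0601) and -1.49 for the probe from base 528 (adjusted p = 0.00459). Against CD45-positive cells both probes passed and were lower, 10.2-fold and 18.8-fold in passage-8 cells, and 4.11-fold and 47.4-fold in CD45-negative cells, in the order of the probes from base 1753 and from base 528. Passage-8 minus left ventricle was -0.55 and -0.15 in the same order, and neither passed.

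**Figure D2:**
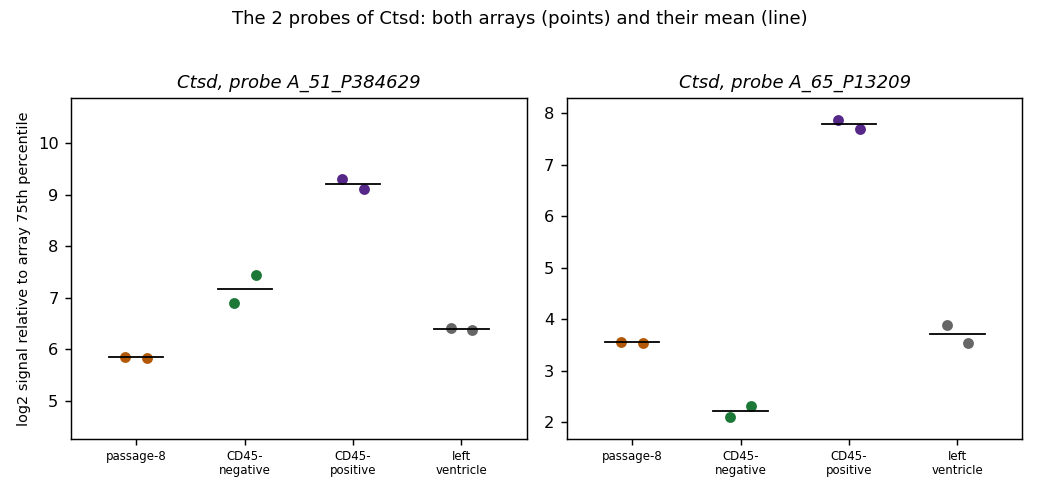
Relative level (log2 signal minus the array's 75th percentile) of the 2 Ctsd probes, from base 1753 (A_51_P384629, left) and from base 528 (A_65_P13209, right), in passage-8 cells, CD45-negative cells, CD45-positive cells and left ventricle. Points are arrays and lines are means of 2. The CD45-negative cells sit above passage-8 cells and left ventricle on the left, at 6.89 and 7.43, and below them on the right, at 2.11 and 2.32.

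Cathepsin E, the other aspartic protease, is found in endosomes of immune cells, in stomach and in red blood cells. Ctse had relative levels of -7.93 and -6.59 in passage-8 cells, -6.87 and -6.08 in CD45-negative cells, -7.83 and -7.14 in CD45-positive cells, with -3.43 and -3.18 in left ventricle, the only group in which both arrays were well above background. It was at least 4.75-fold lower in passage-8 cells (adjusted p by limma = 0.00229), at least 1.93-fold lower in CD45-negative cells (adjusted p = 0.00494) and at least 4.11-fold lower in CD45-positive cells (adjusted p = 0.00193) than in left ventricle. The fitted passage-8 difference of -3.95 was -3.28 without passage-8 replicate 1 and -4.63 without replicate 2. These sizes depend on the background correction. Under normexp background the differences from left ventricle were -1.49 in passage-8 cells, -0.36 in CD45-negative cells and -1.38 in CD45-positive cells, all smaller than the bounds, and the CD45-negative call was lost (adjusted p by limma = 0.435). In the authors' value table they were -1.90, -2.17 and -1.86, in the same order of groups, and all 3 passed. The bounds set the ventricle mean against the lowest signal that was well above background on the arrays of cells. Red blood cell markers moved with it: the 5 of 6 that are on the array summed to at most 0.16 in any array of cells and to 191 to 277 in left ventricle, and their part in the Ctse signal was not tested.

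Cathepsin A trims peptides and also holds beta-galactosidase (Glb1) and the sialidase Neu1 together in a lysosomal complex. Ctsa had relative levels of 7.20 and 7.15 in passage-8 cells, 6.56 and 7.15 in CD45-negative cells, 8.91 and 8.79 in CD45-positive cells, with 5.94 and 5.75 in left ventricle. It was 3.19-fold lower in passage-8 cells (adjusted p by limma = 0.00733) and 3.98-fold lower in CD45-negative cells (adjusted p = 0.00556) than in CD45-positive cells, while passage-8 minus CD45-negative cells was 0.32 with a 95% interval of -0.32 to 0.96. Both calls against CD45-positive cells were lost without CD45-positive replicate 1 or 2. The differences were then -1.61 and -1.74 in passage-8 cells, and -1.93 and -2.05 in CD45-negative cells. The second Ctsa probe, from base 3574 of the transcript, had the same direction in all 6 comparisons and passed in 3 of them.

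The partners of Ctsa in the complex were read in the same way. Neu1 was 2.47-fold lower in passage-8 cells (adjusted p by limma = 0.0203) and 3.90-fold lower in CD45-negative cells (adjusted p = 0.00682) than in CD45-positive cells. Both Neu1 calls were lost without CD45-positive replicate 1 or 2, and the first also without passage-8 replicate 1 or 2. Glb1 did not pass in either of these comparisons and was 5.53-fold, 4.17-fold and 7.71-fold higher in passage-8, CD45-negative and CD45-positive cells than in left ventricle.

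A promoter window of Ctsd and 1 of the 2 windows of Ctsa carry the letters TCACGTGA, the core of the element through which the factors TFEB, TFE3 and MITF bind many lysosomal genes. RefSeq promoter windows were at hand for 7 of the 10 cathepsins (Ctsa with 2 start sites), and Ctsb, Ctse and Ctsh have no entry. The Ctsa window with the letters is that of the downstream start site, and the window of the upstream one, at the annotated start of the gene, holds none of the motifs sought. TCACGTGA, the same on both strands, occurs in 2 of the 8 windows of these 7 genes and in 0.974% of all 32851 promoter windows of that length. The shorter CACGTG, which every TCACGTGA contains, occurs in 3 of the 8 windows (Ctsa, Ctsd and Ctsl) and in 7.15% of all windows. TGANTCA, the AP-1 site, occurs in 0 of the 8 and in 7.81% of all windows. The 280 bases from position -250 to just past the start are printed in build GRCm38.p6, with these matches in capitals. They are at chr2:164833523-164833802 on the plus strand for Ctsa and at chr7:142387798-142388077 on the minus strand for Ctsd.
Ctsa promoter: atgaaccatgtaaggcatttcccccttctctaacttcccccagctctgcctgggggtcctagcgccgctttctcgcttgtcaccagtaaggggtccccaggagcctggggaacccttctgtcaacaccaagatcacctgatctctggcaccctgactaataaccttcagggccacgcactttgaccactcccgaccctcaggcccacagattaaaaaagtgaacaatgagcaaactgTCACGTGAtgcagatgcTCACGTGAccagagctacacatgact
Ctsd promoter: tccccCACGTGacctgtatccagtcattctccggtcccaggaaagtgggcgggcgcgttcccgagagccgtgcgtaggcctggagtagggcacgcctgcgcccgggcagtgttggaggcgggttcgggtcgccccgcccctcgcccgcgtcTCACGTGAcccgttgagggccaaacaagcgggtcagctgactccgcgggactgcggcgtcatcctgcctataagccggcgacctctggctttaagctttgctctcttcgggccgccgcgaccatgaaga

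A match is only a run of letters, and no binding was measured. Of the 4 genes of that factor family, Tfeb passed in none of the 6 comparisons, with adjusted p by limma under 0.05 but a change under 1 log2 unit in the 3 against left ventricle. Tfe3 passed only against left ventricle, 3.02-fold, 4.12-fold and 4.28-fold higher in passage-8, CD45-negative and CD45-positive cells. Mitf had relative levels of -0.17 and 0.05 in passage-8 cells, 0.95 and 1.85 in CD45-negative cells, 3.37 and 3.39 in CD45-positive cells, with 4.12 and 3.83 in left ventricle, and it was 10.9-fold and 3.95-fold lower in passage-8 and CD45-negative cells than in CD45-positive cells. Tfec, a family member known from macrophages, was at least 43.4-fold lower in passage-8 cells (adjusted p by limma = 0.00148) and 5.70-fold lower in CD45-negative cells (adjusted p = 0.0276) than in CD45-positive cells. The CD45-negative calls of Mitf and Tfec were lost without CD45-positive replicate 1 or 2, and that of Tfec also without either CD45-negative array.

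Cathepsin S works at neutral as well as acid pH and completes the cutting of the invariant chain in antigen-presenting cells. Ctss differed most of all 10. Its relative levels were -3.45 and -5.68 in passage-8 cells, where it was well above background on 1 of the 2 arrays, -1.63 and 3.56 in CD45-negative cells, 8.46 and 8.26 in CD45-positive cells, with 1.83 and 1.72 in left ventricle. The CD45-positive arrays were the highest, the passage-8 arrays the lowest, and the CD45-negative arrays lay on either side of the ventricle.

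Ctss was 7757-fold lower in passage-8 relative to CD45-positive cells (log2 difference -12.92, SE 1.66, adjusted p by limma = 0.00412), a value that rests on a passage-8 mean with 1 array at background and that was -14.03 or -11.81 with passage-8 replicate 1 or replicate 2 left out, and -11.25 under normexp background. It was 168-fold lower in CD45-negative relative to CD45-positive cells (-7.39, SE 1.66, adjusted p = 0.0257). That difference was -4.80 (adjusted p = 0.0240) without CD45-negative replicate 1 and -9.98 (adjusted p = 0.00439) without replicate 2, and the call was lost without CD45-positive replicate 1 or 2 (adjusted p = 0.123 and 0.132) and without either ventricle array (adjusted p = 0.0539). Passage-8 minus CD45-negative cells was -5.53 and did not pass (adjusted p = 0.0774), but passed without CD45-negative replicate 1, at -8.12 (adjusted p = 0.00883). It also passed with the median in place of the 75th percentile (-5.52, adjusted p by limma = 0.0356), under normexp background (-3.96, adjusted p = 0.0266) and in the authors' value table (-4.84, adjusted p = 0.0406).

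The gap of 5.19 between the CD45-negative arrays in Ctss went with macrophage markers. All 10 of these markers were higher in CD45-negative replicate 2 than in replicate 1, among them Fcgr1 by 5.27, Adgre1 by 4.91, Mpeg1 by 4.55 and Cd68 by 3.83, and their summed linear level was 3.73 in replicate 1 and 36.6 in replicate 2. The other cathepsins differed less between these arrays. Ctsk was higher in replicate 2 by 0.94, Ctsb by 0.79, Ctsa by 0.59, Ctsd by 0.54 and Ctsl by 0.52, while Ctsz differed by -0.05, Ctsh by -0.51 and Ctsc by -1.22, against a median of -0.08 over all genes. The part of macrophage RNA in the cathepsin levels was not tested.

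**Figure D3:**
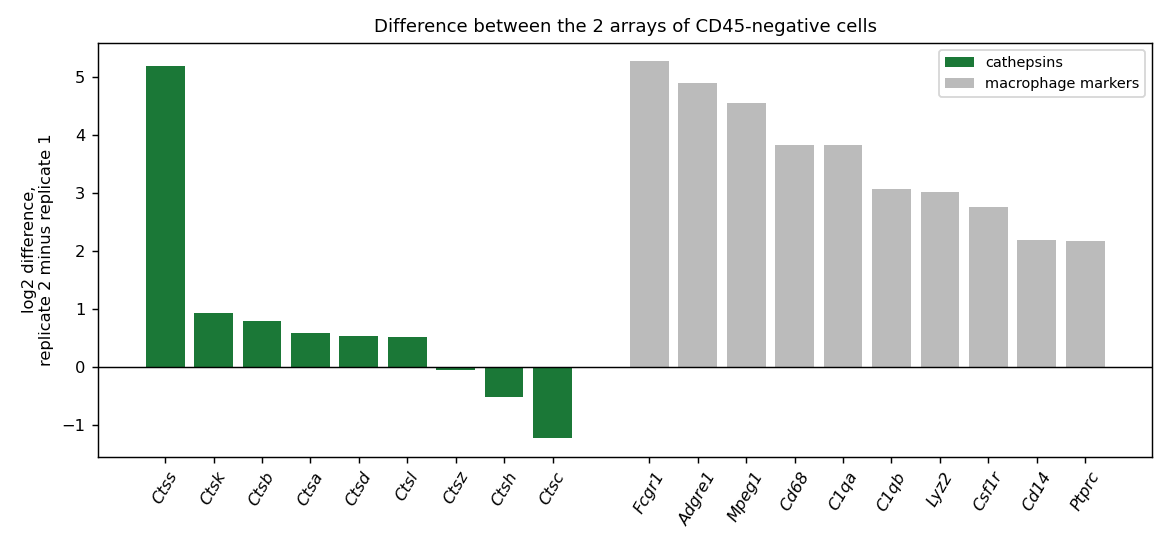
Log2 difference of relative levels between the 2 arrays of CD45-negative cells, replicate 2 minus replicate 1, for 9 cathepsins (green) and 10 macrophage markers (grey). Ctss, at 5.19, lies within the range of the markers, and the other cathepsins lie between -1.22 and 0.94.

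The Ctss window holds GAGGAAGT, a core read by the myeloid factor PU.1, on the complementary strand (ACTTCCTC), with its first base at position -2 from the start site, and the Ctsc window holds it at position -151. These letters, sought on both strands, occur in 2 of the 8 windows of the cathepsins and in 3.20% of all windows. They are in capitals in the runs from chr3:95526536-95526815 and chr7:88277835-88278114, both on the plus strand of GRCm38.p6. Ctss lies 17399 bases from Ctsk, with 2 genes annotated between them, Gm40096 and Hmgb1-ps5, and the Ctsk window holds none of the motifs sought.
Ctss promoter: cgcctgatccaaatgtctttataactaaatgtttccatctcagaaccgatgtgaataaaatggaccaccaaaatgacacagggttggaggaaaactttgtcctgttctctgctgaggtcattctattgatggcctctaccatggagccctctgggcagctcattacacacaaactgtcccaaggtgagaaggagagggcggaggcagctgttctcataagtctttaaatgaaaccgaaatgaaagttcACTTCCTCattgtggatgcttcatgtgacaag
Ctsc promoter: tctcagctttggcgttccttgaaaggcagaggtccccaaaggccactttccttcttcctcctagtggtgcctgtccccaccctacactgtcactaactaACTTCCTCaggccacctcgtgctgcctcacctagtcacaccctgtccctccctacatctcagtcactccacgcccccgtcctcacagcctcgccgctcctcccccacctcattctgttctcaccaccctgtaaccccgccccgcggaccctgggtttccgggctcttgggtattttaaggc

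The invariant chain Cd74 and 5 class II genes, the pathway that cathepsin S serves, had 6 of 6 members lower in passage-8 relative to CD45-positive cells and 5 of 6 lower in CD45-negative relative to CD45-positive cells. Their median log2 differences were -4.75 and -2.98, where 10.9% and 10.5% of all genes tested were lower. Cd74 had relative levels of -4.75 and -3.89 in passage-8 cells, -5.46 and -6.12 in CD45-negative cells, where it was not well above background, 0.29 and 0.44 in CD45-positive cells, with 1.77 and 1.93 in left ventricle. It was 25.7-fold lower in passage-8 cells and at least 24.7-fold lower in CD45-negative cells than in CD45-positive cells. Unlike Ctss, Cd74 was 2.80-fold lower in CD45-positive cells than in left ventricle (adjusted p by limma = 0.0215), and H2-Eb1 was 5.46-fold lower there. Of the other members H2-DMb1 was higher there and 3 did not pass, where 18.3% of all genes tested were higher and 19.8% lower. The calls of Cd74 and H2-Eb1 against left ventricle were lost without any 1 of the 4 arrays of the groups compared. Between CD45-negative and CD45-positive cells those of H2-Aa, H2-Eb1 and H2-DMb1 were lost without CD45-positive replicate 1 or 2.

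Cathepsin K is the collagen-degrading protease of osteoclasts and is also made by fibroblasts. Ctsk had relative levels of 1.74 and 1.84 in passage-8 cells, 3.54 and 4.48 in CD45-negative cells, 6.46 and 6.47 in CD45-positive cells, with 0.76 and 1.35 in left ventricle. No 2 groups overlapped. It was 25.4-fold lower in passage-8 cells (log2 difference -4.67, SE 0.37, adjusted p by limma = 0.00111) and 5.47-fold lower in CD45-negative cells (-2.45, adjusted p = 0.00836) than in CD45-positive cells, and 4.65-fold lower in passage-8 relative to CD45-negative cells (-2.22, adjusted p = 0.0165). The last call was lost without passage-8 replicate 1 or 2, at -2.17 and -2.27. That of CD45-negative against CD45-positive cells was lost without CD45-positive replicate 1 or 2, at -2.46 and -2.45.

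Osteoclast markers, another possible companion of Ctsk, summed to 0.81 to 0.89 in passage-8 cells, 4.27 to 7.12 in CD45-negative cells, 43.9 to 45.6 in CD45-positive cells and 2.59 to 3.04 in left ventricle, with 7 to 8 of 8 well above background in CD45-positive cells, and their part was not tested. Of 6 genes for matrix proteins that cathepsins K, L and S can cut, Col3a1, Col1a1, Lama2, Col1a2 and Fn1 were higher in CD45-negative relative to CD45-positive cells, by 2.84-fold for Col3a1 and 2.02-fold for Fn1. Of all genes tested there, 11.2% were higher. In passage-8 against CD45-positive cells only Col1a2 was higher, by 2.04-fold, and Lama2 was 16.3-fold lower, where 12.6% of all genes tested were higher and 10.9% lower. The calls of the 5 genes between CD45-negative and CD45-positive cells were lost without CD45-positive replicate 1 or 2, those of Col1a1, Col1a2 and Fn1 also without CD45-negative replicate 2, that of Col3a1 without CD45-negative replicate 1, and those of Col1a2 and Fn1 without either passage-8 array. The calls of Col1a1, Col1a2 and Fn1 were lost as well under quantile normalization, normexp background or the authors' value table. The passage-8 call of Col1a2 was lost without any 1 of the 4 arrays compared.

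Cathepsin H is an aminopeptidase. Ctsh had relative levels of 2.04 and 2.14 in passage-8 cells, 5.69 and 5.18 in CD45-negative cells, 6.65 and 6.69 in CD45-positive cells, with 3.22 and 3.44 in left ventricle. No 2 groups overlapped, and Ctsh was the cathepsin that passed with the lowest adjusted p between passage-8 and CD45-negative cells, 10.1-fold lower in passage-8 cells (log2 difference -3.34, SE 0.25, adjusted p by limma = 0.00161). Passage-8 minus CD45-positive cells was -4.58 (adjusted p by limma = 0.00052). The CD45-negative cells were 2.35-fold lower than CD45-positive cells (adjusted p = 0.0184), which did not hold without CD45-negative replicate 2 (-0.98, under the required 1), nor without CD45-positive replicate 1 or 2 (adjusted p = 0.110 and 0.130), nor with the median in place of the 75th percentile (adjusted p = 0.0924).

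Cathepsin C, or dipeptidyl peptidase I, removes dipeptides and activates the granule proteases of neutrophils, mast cells and cytotoxic lymphocytes. Ctsc had relative levels of -0.54 and -0.81 in passage-8 cells, 1.61 and 0.39 in CD45-negative cells, 4.01 and 4.29 in CD45-positive cells, with 1.56 and 1.65 in left ventricle. The ranges of CD45-negative cells and left ventricle overlapped. Ctsc was 28.3-fold lower in passage-8 cells (log2 difference -4.83, SE 0.42, adjusted p by limma = 0.00135) and 8.87-fold lower in CD45-negative cells (-3.15, adjusted p = 0.00581) than in CD45-positive cells.

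The second of these Ctsc differences was -3.76 without CD45-negative replicate 1 and -2.54 without replicate 2, and its call was lost without CD45-positive replicate 2 (adjusted p = 0.0589). Passage-8 minus CD45-negative cells was -1.68 and passed narrowly (adjusted p by limma = 0.0482). It was -1.07 without CD45-negative replicate 1 and -2.29 without replicate 2, both still passing, and the call was lost without any 1 of the other 6 arrays (adjusted p of 0.0822 to 0.215), and also with the median in place of the 75th percentile (adjusted p = 0.155), with no filter on dim probes (adjusted p = 0.0675) and with the replicate block (adjusted p = 0.0653). A second Ctsc probe, tied to another transcript, passed and was lower only in passage-8 against CD45-positive cells among the cell comparisons, by 8.45-fold (adjusted p = 0.0176).

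Of 10 proteases that cathepsin C activates, 5 were tested between CD45-negative and CD45-positive cells and 0 passed by limma, with 1 at an unadjusted p under 0.05. Of all genes tested there, 21.7% passed. In passage-8 against CD45-positive cells 2 of 6 tested were higher, Prtn3 by 6.25-fold and Gzmk by 2.74-fold, and 0 were lower. Of all genes tested, 12.6% were higher and 10.9% lower in that comparison. The call of Gzmk was lost without any 1 of the 4 arrays compared. The mast cell proteases Mcpt4 and Cma1 were highest in left ventricle, where 5 of 7 mast cell markers were well above background.

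Between passage-8 and CD45-positive cells, the culture and the cells it came from, 9 of the 9 cathepsins tested were lower and 0 higher, where 10.9% of all 23418 genes tested were lower and 12.6% higher (23.5% in either direction). The median log2 difference was -3.35 over the cathepsins and 0.16 over all genes. Ctss, Ctsc, Ctsk and Ctsh had folds over 20, and Ctsl, Ctsa, Ctsz, Ctsb and Ctsd were 3.18-fold to 10.2-fold lower. For Ctsd that is by its brighter probe, and its other probe gave a log2 difference of -4.23. Without CD45-positive replicate 1 or 2 the count was 7, Ctsa and Ctsl being lost.

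Between CD45-negative and CD45-positive cells, 8 of 9 tested cathepsins were lower and 0 higher, where 10.5% of all 21502 genes tested were lower and 11.2% higher (21.7% in either direction). The median log2 difference was -2.04 over the cathepsins and 0.17 over all genes. Ctsa, Ctsb, Ctsd and Ctsz lay within 3.44-fold and 4.27-fold, with Ctsh below and Ctsk, Ctsc and Ctss beyond that range. Ctsd lies in that range by its brighter probe only, and its other probe gave a log2 difference of -5.57. With a CD45-positive array left out the calls were few: 2 (Ctsc and Ctsz) without replicate 1 and 1 (Ctsz) without replicate 2. The calls over all genes fell there too, to 1120 and 804, against 4676 with all arrays, and the differences of all 9 cathepsins stayed below 0.

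Between passage-8 and CD45-negative cells, the populations the study set out to compare, 4 of 9 tested cathepsins were lower (Ctsh, Ctsk, Ctsc and Ctsd) and 0 higher, where 6.98% of all 22751 genes tested were lower and 6.97% higher (13.9% in either direction). The median log2 difference was -1.32 over the cathepsins and -0.01 over all genes. Ctsd counts here by its brighter probe only. Ctsa, Ctsb, Ctsl, Ctss and Ctsz did not pass, and the narrowest interval was that of Ctsz, under 0.5 in either direction. The count was 1 (Ctsh) without passage-8 replicate 1 or 2, 2 (Ctsh and Ctsk) without CD45-positive replicate 1 or 2, and 5, with Ctss added, without CD45-negative replicate 1, under normexp background or in the authors' value table. With the median in place of the 75th percentile Ctsc and Ctsd were lost and Ctss was gained. Markers of other cells also differed in this comparison, the mesothelial ones in the direction opposite to the 4 cathepsins. Of 7 mesothelial markers, 6 were higher and 0 lower in passage-8 relative to CD45-negative cells, with a median log2 difference of 6.20. Their summed level was 34.0 to 38.2 in passage-8 cells, with 7 of 7 well above background, and 0.81 to 3.66 in CD45-negative cells, with 3 to 4 of 7. In CD45-positive cells it was 5.96 to 6.93, with 7 of 7. Of 10 fibroblast markers 6 were lower in passage-8 cells and 0 higher. The part of either in the cathepsin differences was not tested. These 3 comparisons share their samples, so their counts are not independent of each other.

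**Figure D4:**
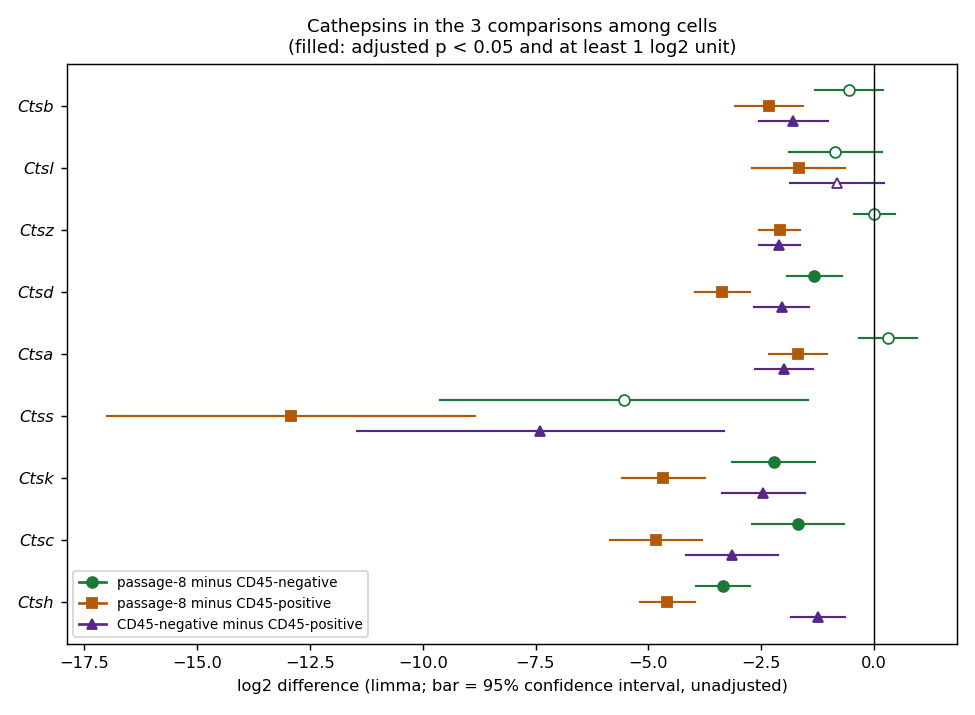
Log2 differences of the 9 cathepsins tested between cell groups, for passage-8 minus CD45-negative (circles), passage-8 minus CD45-positive (squares) and CD45-negative minus CD45-positive cells (triangles). Bars are 95% confidence intervals of the limma fit, unadjusted, and filled symbols passed at an adjusted p under 0.05 and at least 1 log2 unit. All squares are filled and left of 0, and the circle of Ctsz stands at 0.01.

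Against left ventricle all 10 cathepsins were tested, and the CD45-positive cells had 9 higher and 1 lower, where 18.3% of all 23067 genes tested were higher and 19.8% lower (38.1% in either direction). The largest were Ctss (95.8-fold), Ctsk (42.5-fold), Ctsz (25.0-fold) and Ctsh (10.1-fold). The median was 2.93 over the cathepsins and -0.02 over all genes. The call for Ctss was lost without any 1 of the 4 arrays of these groups (adjusted p by limma of 0.0917 to 0.0979), and that for Ctsl without CD45-positive replicate 1 (adjusted p = 0.0564) or replicate 2 (adjusted p = 0.0518). Ctsl was 1.55 without ventricle replicate 1 and 2.73 without replicate 2, where all arrays gave 2.14.

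The CD45-negative cells had 6 cathepsins higher than left ventricle (Ctsk, Ctsz, Ctsh, Ctsl, Ctsb and Ctsa) and 1 lower (Ctse), where 20.3% of all 22256 genes tested were higher and 19.2% lower (39.5% in either direction). The median was 1.04 over the cathepsins and 0.06 over all genes. Ctsk was 7.77-fold, Ctsz 5.85-fold and Ctsh 4.29-fold higher, and these 3 passed with any array left out. The smaller differences of Ctsl (2.50-fold), Ctsb (2.11-fold) and Ctsa (2.01-fold) did not: Ctsa and Ctsb lost their call without CD45-negative replicate 2, CD45-positive replicate 1 or 2, or ventricle replicate 1 or 2, Ctsb also without passage-8 replicate 1 or 2, and Ctsl without any 1 array but ventricle replicate 2. Ctsl was 0.73 without ventricle replicate 1 and 1.91 without replicate 2, where all arrays gave 1.32. Without CD45-negative replicate 1 Ctsd passed, at 1.04, and Ctsc, at -1.21, and without replicate 2 Ctss passed, at -3.40. With all arrays Ctsc, Ctsd and Ctss did not pass. Ctsd stands here by its brighter probe, and with all arrays its other probe passed in the opposite direction, at -1.49. For Ctss 1 CD45-negative array lay above and 1 below both ventricle arrays, and for Ctsc 1 lay between the ventricle arrays and 1 below them. Under quantile normalization and in the authors' value table the calls of Ctsa, Ctsb and Ctsl were lost, and under normexp background those of Ctsa, Ctsb and Ctse. The call of Ctsl was also lost with no filter on dim probes, and that of Ctsa with the mean of its probes.

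The passage-8 cells had 2 cathepsins higher than left ventricle (Ctsz and Ctsa) and 4 lower (Ctss, Ctse, Ctsc and Ctsh), where 20.4% of all 23960 genes tested were higher and 18.8% lower (39.2% in either direction). The share of cathepsins higher, 2 of 10, lay near that of all genes, and 4 of 10 were lower. Of these 4, Ctss and Ctse entered the test through left ventricle alone, the group where they are high, so no excess is read from that count. The median was -0.04 over the cathepsins and 0.05 over all genes. Ctsz was 5.88-fold and Ctsa 2.51-fold higher. Ctsc was 4.85-fold and Ctsh 2.36-fold lower, and the call of Ctsh was lost without passage-8 replicate 1 (adjusted p by limma = 0.0574) and with the median in place of the 75th percentile (adjusted p = 0.108). Ctss differed by -6.34, with 1 of the 2 passage-8 arrays not well above background, so its size is uncertain: it was -7.45 without passage-8 replicate 1, -5.23 without replicate 2 and -4.74 under normexp background. Its call was lost without ventricle replicate 1 or 2 (adjusted p = 0.101 and 0.0971) or passage-8 replicate 2 (adjusted p = 0.0959).

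Other peptidases of the lysosome gave a mixed picture. Of all genes tested, 10.9% were lower and 12.6% higher in passage-8 than in CD45-positive cells. For CD45-negative against CD45-positive cells these shares were 10.5% and 11.2%. Of 10 listed peptidases, 9 were tested and 4 were lower in passage-8 and in CD45-negative cells than in CD45-positive cells, the same 4 in both, with 0 higher and median log2 differences of -0.88 and -0.94. They were legumain (Lgmn), which cuts cathepsin chains after asparagine, by 10.5-fold and 4.27-fold in passage-8 and CD45-negative cells, Tpp1 by 3.14-fold and 3.82-fold, Dpp7 by 3.14-fold and 3.16-fold, and the aspartic protease Napsa by at least 34.7-fold and at least 14.1-fold. Ctsf, cathepsin F, was 2.14-fold higher in passage-8 relative to CD45-negative cells (adjusted p by limma = 0.0207), and Lgmn was 2.47-fold lower, and both calls were lost without any 1 passage-8 or CD45-positive array. In passage-8 against CD45-positive cells the calls of Tpp1 and Dpp7 were lost without any 1 of the 4 arrays compared, and Dpp7 also without either ventricle array. In CD45-negative against CD45-positive cells the calls of Lgmn and Napsa were lost without CD45-positive replicate 2, those of Tpp1 and Dpp7 without replicate 1 or 2, and Dpp7 also without any passage-8 or ventricle array. Of the 9 cathepsins known only from rodent placenta, at most 1, Cts7, was tested in any comparison, and 0 passed by limma, with Cts7 at an unadjusted p under 0.05 in 1 comparison, CD45-positive cells against left ventricle.

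Of 19 listed inhibitors of cathepsins, 17 are on the array and 7 to 10 were tested in a comparison. Cystatin E/M (Cst6), an inhibitor of cathepsin L and legumain, had relative levels of -0.56 and -0.64 in passage-8 cells, 3.41 and 2.92 in CD45-negative cells, 0.90 and 1.00 in CD45-positive cells, with 0.66 and 0.53 in left ventricle. It was thus highest in CD45-negative cells, 13.6-fold lower in passage-8 relative to CD45-negative cells (adjusted p by limma = 0.00118) and 4.65-fold higher in CD45-negative relative to CD45-positive cells (adjusted p = 0.00367). Cystatin F (Cst7), which inhibits cathepsin C in immune cells, was well above background in CD45-positive cells alone, at least 28.5-fold lower in passage-8 and at least 11.6-fold lower in CD45-negative cells, the last call being lost without CD45-positive replicate 1 or 2.

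The inhibitors that were highest in passage-8 cells were Ctla2a and Ctla2b, which resemble the propeptide of cathepsin L. Ctla2a was 4.31-fold and 7.13-fold higher in passage-8 cells than in CD45-negative and CD45-positive cells, and Ctla2b 5.87-fold and 3.97-fold. These are near-identical copies, so 1 probe may also read the other gene. Against CD45-negative cells both calls were lost without passage-8 replicate 1 or 2, and against CD45-positive cells that of Ctla2b was lost without CD45-positive replicate 1 or 2 or passage-8 replicate 2. Cystatin C (Cst3), the abundant secreted inhibitor, was 2.55-fold lower in passage-8 relative to CD45-positive cells (adjusted p by limma = 0.0188), a call lost without any 1 of the 4 arrays compared, and stefin B (Cstb) passed only against left ventricle, 9.60-fold, 7.18-fold and 14.1-fold higher in passage-8, CD45-negative and CD45-positive cells.

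Of 11 genes that sort enzymes to the lysosome, 3 were lower in passage-8 and 5 in CD45-negative cells than in CD45-positive cells, and 0 were higher, with median log2 differences of -0.51 and -0.66. Psap, Nagpa and Gga1 were lower in both, and Sort1 and M6pr in CD45-negative cells alone. Of all genes tested, 10.9% and 10.5% were lower and 12.6% and 11.2% higher in these comparisons, in the same order. Prosaposin (Psap), the precursor of the saposins, had log2 differences of -2.12 and -3.43, and Nagpa, the enzyme that uncovers the mannose 6-phosphate tag, was 4.18-fold and 3.51-fold lower, in passage-8 and CD45-negative cells. Sortilin (Sort1), a sorting receptor, had relative levels of 1.59 and 1.64 in passage-8 cells, -2.91 and -1.49 in CD45-negative cells, 1.73 and 1.69 in CD45-positive cells, with 1.71 and 1.72 in left ventricle. Low in CD45-negative cells alone, it was 14.1-fold higher in passage-8 relative to CD45-negative cells (adjusted p by limma = 0.00615) and 15.1-fold lower in CD45-negative relative to CD45-positive cells (adjusted p = 0.00436). The calls of Psap and Nagpa against CD45-positive cells and both calls of Sort1 held with any array left out. The receptor gene Igf2r passed in none of the 6 comparisons.

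Over the 8 arrays, the likeness of 2 genes was measured as the root mean square difference of their profiles, each centred on its mean, for the 8 cathepsins and the 12095 genes with a gene symbol that were well above background on every array. The genes nearest to Ctsb were Pfkfb4 (0.13), Ang4 (0.15) and Ang (0.24), and those nearest to Ctsa were Wdr91 (0.15), Snx8 (0.21) and Ptpn1 (0.22). Ctsz lay nearest to Pld3 (0.20), Ctsd to Daglb (0.21), Ctsl to Por (0.24), Ctsc to Pgm2l1 (0.33), Ctsh to B3galnt1 (0.33) and Ctsk to Slc2a6 (0.35). Among the cathepsins themselves Ctsa and Ctsb were closest, at 0.35, and Ctsc and Ctsz farthest apart, at 1.78. The nearest neighbours describe these 8 arrays, which share 4 groups, and carry no test.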

How the data were processed

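Per the submitters' processing notes, the arrays were read with Agilent Feature Extraction 10.7. The processed signal used here is a deposited spot intensity from which background was subtracted and which was detrended inside each array, per the file headers. The authors' deposited value table holds log2 values and served as an alternative. What made it is not given in the sources. RNA input was 200 ng per array, per the labels' protocols.

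Each array was taken to log2 and set to its own 75th percentile, spots of 1 probe were averaged without control and outlier spots, and symbols were updated through RefSeq. The probe with the highest mean over the 8 arrays stands for a gene. All arrays entered limma 3.58.1 (R 4.3.3; lmFit, eBayes) with 1 mean per group and 4 residual degrees of freedom. A gene was tested where both arrays of at least 1 compared group were well above background, and p-values were adjusted by Benjamini-Hochberg over all genes of a comparison. All p-values are two-sided. SEs and intervals rest on a spread pooled over the 4 groups, which were unequal. Over 17961 genes the replicate SD was 0.15 in passage-8, 0.53 in CD45-negative and 0.18 in CD45-positive cells, and 0.36 in left ventricle. The tighter groups thus lower the SEs and p-values of comparisons with CD45-negative cells. With 2 arrays a group, the smallest exact permutation p is 0.333, and no such test was run. The fit was tested on simulated data in which a gene had the same spread in every group, so that test cannot check the effect of the unequal spreads.

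Members and gene lists were chosen with earlier results of these data known. The plan was to name all 10 cathepsins, up to 4 passing members per direction of each list, and members behind counts of 5 or fewer. It also took the 3 nearest profiles of each cathepsin well above background on all arrays. Not every such list member or profile is named in the text. Probe coordinates are mm9, per the file headers. Promoters are RefSeq windows of GRCm38.p6, searched on both strands.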

Additional observations from a re-analysis of the deposited data

How the results depend on the processing

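Alternatives covered normalization, background correction, the filter on dim probes, the authors' own value table, the choice of probe, the size threshold, the arrays in the fit, a replicate block, and each array left out. All were planned with earlier results known. Among the values of single cathepsins under them, 968 kept direction and call, 92 lost the call, 8 gained it and 9 changed sign. Among those of the other named genes, 2599 kept both, 265 lost the call and 2 changed sign. With 2 arrays per group, the number of arrays limits the precision.

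With only the 4 arrays compared, limma passed 5 cathepsins in place of 8 for CD45-negative against CD45-positive cells, 0 in place of 4 for passage-8 against CD45-negative cells (4 at an unadjusted p under 0.05), and 4 in place of 7 for CD45-negative cells against left ventricle. For passage-8 against CD45-negative cells 5 passed under normexp background and in the authors' value table, with Ctss gained. The count for CD45-negative cells against left ventricle was also 4 under quantile normalization, normexp background and the authors' value table. With only the 4 arrays compared, the counts without CD45-negative cells stayed as they were. They were 9 for passage-8 against CD45-positive cells, 10 for CD45-positive cells against left ventricle and 6 for passage-8 cells against left ventricle. The cause of the changed counts was not tested. Leaving out 1 array gave 1 to 8 cathepsins for CD45-negative against CD45-positive cells, 7 to 9 for passage-8 against CD45-positive cells, 1 to 5 for passage-8 against CD45-negative cells, 4 to 8 for CD45-negative cells against left ventricle, 8 to 10 for CD45-positive cells against left ventricle and 5 to 6 for passage-8 cells against left ventricle.

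Ctsd in passage-8 against CD45-negative cells was 0.011 with the mean of its probes and 1.34 with its other probe, and in CD45-negative cells against left ventricle -0.36 and -1.49. Under normexp background Stfa2l1 in CD45-negative against CD45-positive cells turned to 0.39 and Cst13 in CD45-negative cells against left ventricle to 0.10, and the cause was not tested. With 1 array left out, Ctsl in passage-8 cells against left ventricle ranged from -0.12 to 1.06, Ctsz in passage-8 against CD45-negative cells from -0.018 to 0.033, Ctss in CD45-negative cells against left ventricle from -3.40 to 1.79 and Ctsc there from -1.21 to 0.0091, none of which passed with all arrays.

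The replicate number is the row of the slide. Deviations of same-numbered arrays correlated at -0.20 to 0.19 over 17961 genes, and with so few arrays per group these values cannot settle whether the samples are paired. With the replicate block 3 cathepsins passed in passage-8 against CD45-negative cells, Ctsc being lost (adjusted p by limma = 0.0653), and the other 5 counts were 8, 9, 7, 10 and 6 as without it. Slide and scan date are shared by all arrays.

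Over all genes, the counts of calls moved by over 1.5 times with only the 4 arrays compared (1973 and 181 in CD45-negative against CD45-positive and passage-8 against CD45-negative cells, with 4676 and 3172 in the fit of all arrays) and with the median in place of the 75th percentile (3020 and 1867). With 1 array left out these 2 counts ranged from 804 to 5987 and from 851 to 5174, and that of passage-8 against CD45-positive cells from 2182 to 6309.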
